A study of Mus musculus with 4 samples.

Results

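The Id genes and the core components of bone morphogenetic protein (BMP) signalling were examined in MC38 cells, a mouse colon cancer line, with and without deletion of Cbfb. Members were taken by gene symbol and comprise Id1, Id2, Id3 and Id4, the ligand gene Bmp4, the receptor genes Bmpr1a, Bmpr2 and Acvr1, and the signal transducer genes Smad1 and Smad5. All 10 symbols were found among the 26322 genes listed. The set was chosen by the log2 expression values of these same libraries, with the comparison between the groups already known. The differences of its members between sgCbfb and sgNT cells are therefore given as a description. They were part of the fit over all genes, and the count of members past its threshold is given as part of that description, with no p-value and as no evidence.

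The sgNT cells (WT in the sample labels) received Cas9 protein complexed with a non-targeting guide, and the sgCbfb cells (CbfbKO) received Cas9 with a guide against Cbfb, the gene of the β subunit of core-binding factor, the partner that RUNX proteins need to bind DNA well. Both groups were electroporated and were collected at least 1 week later, and no further treatment is given. Each group has 2 libraries, numbered 1 and 2 (the third was set aside by the submitters for its RNA quality), and nothing in the labels says whether they came from separate cultures or whether the edited cells were a clone, so the p-values measure the spread between these libraries only. The comparison asks which transcripts differ once CBFβ is lost.

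The libraries were made from the 3′ ends of mRNA, so that a transcript gives reads from 1 end and levels need no correction for length. The deposited values are log2 CPM (counts per 1000000 reads of a library) with a small added count, and the whole reads behind them could be recovered. The libraries held between 3189035 and 3907936 reads counted on genes, and 1 read was worth between 0.256 and 0.314 CPM. Cbfb itself had 295 and 285 reads in the sgNT libraries and 125 and 125 in the sgCbfb libraries, which is 40.9% of the sgNT level. These reads come from the end of the transcript and do not show the edit itself. Markers of an epithelial cell were nearly absent from all libraries, with 8 of 9 at 3 reads or fewer in each, among them Epcam and Cdh1, and with Krt18, Cdx1 and Vil1 at 0. Leukocyte and endothelial markers summed to at most 1.54 and 0.600 CPM. Fibroblast markers summed to between 173 and 186 CPM in sgNT and between 136 and 145 CPM in sgCbfb cells, with Lum at 0. The lower sum lay in Col3a1, at 113.7 and 106.1 against 55.5 and 61.8 CPM, and without it the other 6 summed to between 66.6 and 72.1 CPM in sgNT and between 80.3 and 83.7 CPM in sgCbfb cells. Their part in the results below was not tested.

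In BMP signalling, a secreted dimer such as BMP2 or BMP4 brings together type II receptors (BMPR2) and type I receptors (BMPR1A, ACVR1), which phosphorylate SMAD1 and SMAD5. These join SMAD4, enter the nucleus and switch on target genes, of which the Id genes are the best known. ID proteins have a helix-loop-helix domain but no DNA-binding region, and they hold E proteins and other bHLH factors away from DNA, which in many tissues keeps cells dividing or undifferentiated. Secreted antagonists such as Gremlin 1 trap the ligands, and the inhibitory SMADs, SMAD6 and SMAD7, close a feedback loop.

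Sequence before the transcription start is shown for Id2 and Id4, as Id genes lie at the end of the pathway. Id4 had too few reads to give it a direction, so these 2 lines are not a contrast. The sequence of Grem1 is shown because it had the largest difference among the tested genes of the pathway named here. Sequences are from RefSeq (GRCm38.p6), whose promoter table held an entry for 9 of the 10 members, with Id1 the exception. The Id3 window lies wholly in annotated exons and is not printed. The 250 bases before each start were searched on both strands for 4 short motifs. RUNX proteins bind TGTGGT, which stood in 14.0% of all 32851 windows of this length in the table, and a variant of it, TGCGGT, found in 5.10% of the windows. SMAD1 and SMAD5 favour the palindrome GGCGCC, in 9.59% of the windows, while the SMAD box, CAGAC, was in 42.2%. These motifs do not overlap in the lines printed. The 9 members have 11 windows, of which 5 held GGCGCC (Id2, Id4, Bmpr1a, Bmpr2 and 1 of Smad5) and 2 held CAGAC (Id3 and another of Smad5). Outside annotated exons this left GGCGCC for 3 members (Id2, Id4 and Bmpr1a) and CAGAC for 0. The members' windows were GC-rich, at 60.0 to 85.6% against a median of 52.4% over all windows, and the part of this in the counts was not tested. The RUNX letters were in 0 of the 11 windows, which says only that these letters are not there. Fstl1 and Runx2, pathway genes tested further on, held TGCGGT and TGTGGT respectively, each within an annotated exon. In the lines that follow, read 5′ to 3′, capitals mark GGCGCC or CAGAC. Only bases outside annotated exons are printed, so that the Id2 line covers the 89 bases farthest from the start (chr12:25096254-25096342, minus strand), which lie inside the longer GENCODE gene but in none of its exons. The Id4 line is chr13:48260866-48261115, plus strand, and the Grem1 line is chr2:113758649-113758898, minus strand.
Id2: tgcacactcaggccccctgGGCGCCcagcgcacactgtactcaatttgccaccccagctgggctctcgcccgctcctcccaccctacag
Id4: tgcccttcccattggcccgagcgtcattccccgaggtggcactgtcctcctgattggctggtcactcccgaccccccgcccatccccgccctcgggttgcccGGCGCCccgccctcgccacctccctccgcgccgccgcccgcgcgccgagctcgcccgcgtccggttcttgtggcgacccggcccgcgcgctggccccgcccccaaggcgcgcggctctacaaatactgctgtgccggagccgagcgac
Grem1: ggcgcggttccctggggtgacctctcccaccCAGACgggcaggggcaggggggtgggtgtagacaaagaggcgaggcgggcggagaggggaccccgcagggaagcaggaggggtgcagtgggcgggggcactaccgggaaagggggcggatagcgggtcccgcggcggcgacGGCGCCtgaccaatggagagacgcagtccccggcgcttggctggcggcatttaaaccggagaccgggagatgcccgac

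The Id genes did not move together. Id1 was higher in sgCbfb cells, Id2 was lower, Id3 was close to its sgNT level, and Id4 had too few reads to place. Id1 (chr2:152736251-152737410, plus strand) is the classic immediate target of SMAD1 and SMAD5. It had 428 and 422 reads in the sgNT libraries and 643 and 562 in the sgCbfb libraries, that is 126.0 and 126.5 CPM against 164.5 and 176.2 CPM. Both sgCbfb libraries lay above both sgNT libraries, and the sgNT libraries were nearly equal. On the deposited scale the level was 6.99 ± 0.0041 log2 CPM (SD, n = 2) without and 7.42 ± 0.070 (SD, n = 2) with deletion of Cbfb. The log2 difference was 0.43, with a standard error of 0.081 from limma.

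Id2 (chr12:25093799-25097140, minus strand), which also acts in lymphoid and other lineages outside BMP signalling, went the other way. The sgNT libraries held 128 and 119 reads and the sgCbfb libraries 89 and 74, that is 37.7 and 35.7 CPM against 22.8 and 23.2 CPM. The groups did not overlap, and the gap between them was several times the distance between libraries of a group. It averaged 5.22 ± 0.055 log2 CPM (SD, n = 2) without and 4.56 ± 0.019 (SD, n = 2) with deletion of Cbfb. The log2 difference of -0.66 (standard error 0.15) leaves 62.6% of the sgNT reads after scaling to library totals.

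Id3 (chr4:136143497-136145755, plus strand), often expressed together with Id1, went from 413 and 419 sgNT reads to 526 and 435 sgCbfb reads. These are 121.6 and 125.6 CPM against 134.6 and 136.4 CPM, so that the sgCbfb libraries were slightly the higher, with a log2 difference of 0.13 (standard error 0.083). Id4 (chr13:48261228-48266026, plus strand), best known from the nervous system and breast, was at the limit of detection, with 3 and 2 sgNT reads against 8 and 6 sgCbfb reads. Pooled by group this is 5 against 14 reads, a ratio of 2.66 after scaling, with a 95% exact binomial interval from 0.904 to 9.42 that covers counting error only. The log2 difference of 0.95 (standard error 0.47) on the deposited scale is thus poorly determined. Exons of Id4 also overlap a listed antisense gene, A330033J07Rik, over 82 bases, and the sources used here do not say whether reads were counted by strand.

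Because ratios of reads inside a library do not depend on how libraries are scaled, they show the split between the Id genes directly. Each Id2 read was matched by 3.34 and 3.55 Id1 reads in the sgNT libraries and by 7.22 and 7.59 in the sgCbfb libraries. The ratio of Id3 to Id2 was 3.23 and 3.52 in sgNT against 5.91 and 5.88 in sgCbfb cells, and that of Id1 to Id3 was 1.04 and 1.01 against 1.22 and 1.29. In none of these ratios did the groups overlap, which for the ratios to Id2 follows from the levels already given and adds no support. Summed over the 4 Id genes, the level was 286 and 288 CPM in sgNT and 324 and 338 CPM in sgCbfb cells.

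**Figure D1:**
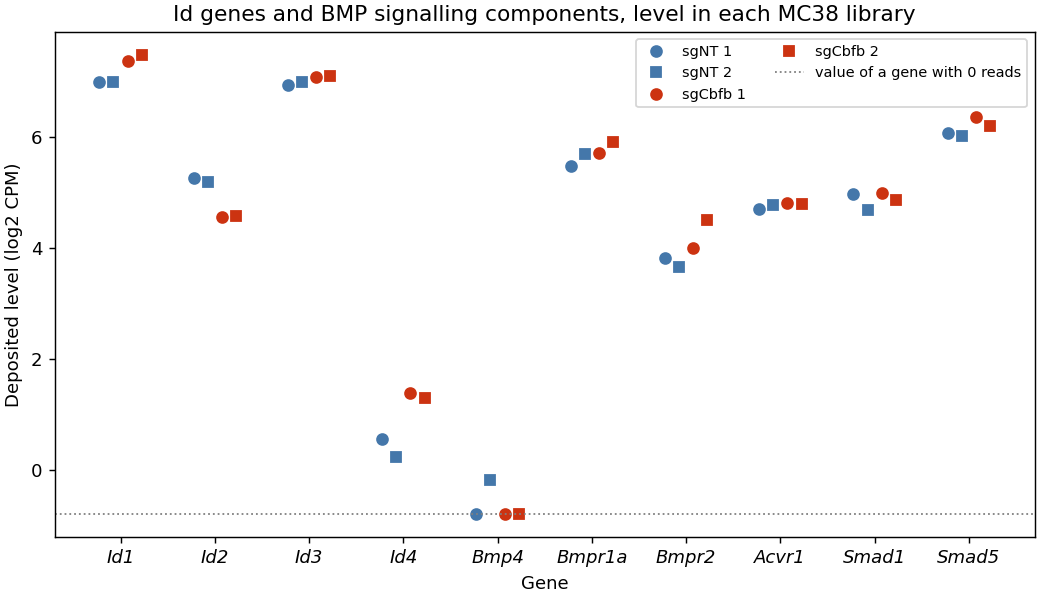
Deposited level (log2 CPM) of each of the 10 genes in each library, with sgNT libraries in blue and sgCbfb libraries in red; the dotted line at -0.79 is the value of a gene with 0 reads. Id1 is higher and Id2 lower in both sgCbfb libraries, Id4 and Bmp4 lie near the floor, and the receptor and Smad genes lie between 3.65 and 6.35 log2 CPM in all libraries.

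The ligand gene among the members was all but silent. Bmp4 (chr14:46383520-46390669, minus strand) had 0 and 1 reads in the sgNT libraries and 0 and 0 in the sgCbfb libraries, so that no fold is given. Its exons overlap the listed antisense gene Gm15217 over 89 bases, with the same doubt about strand as for Id4. It was the 1 member that did not pass the filter of at least 0 log2 CPM in at least 2 libraries, which 12207 genes passed. The other 9 members passed it in the sgNT libraries alone as well as in the sgCbfb libraries alone.

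All 3 receptor genes were expressed. Bmpr1a (chr14:34410734-34503341, minus strand), a type I receptor for BMP2 and BMP4, was the highest of them with 148 and 170 reads in sgNT and 202 and 188 in sgCbfb cells, that is 43.6 and 51.0 CPM against 51.7 and 59.0 CPM. The groups nearly touched, and the log2 difference was 0.23 (standard error 0.13), or between 0.11 and 0.34 with any 1 library left out. Acvr1 (chr2:58388644-58567157, minus strand), a type I receptor with a preference for BMP6 and BMP7, had 86 and 89 reads against 107 and 86, and its levels of 25.3 and 26.7 against 27.4 and 27.0 CPM gave a log2 difference of 0.063 (standard error 0.16), or 0.026 without sgNT library 1.

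Bmpr2 (chr1:59763400-59879014, plus strand), the type II receptor specific to BMPs, was the lowest of the 3 and the most uneven. It had 46 and 40 reads in sgNT and 60 and 70 in sgCbfb cells, and levels of 13.5 and 12.0 against 15.4 and 22.0 CPM. The sgCbfb libraries lay above the sgNT libraries but differed among themselves by more than the lower of them differed from sgNT. The log2 difference was 0.51 (standard error 0.23). It was 0.26 without sgCbfb library 2 and 0.76 without sgCbfb library 1, so that the size of the difference turns on a single library.

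The transducers differed little. Smad5 (chr13:56703010-56742377, plus strand) was the more abundant, with 225 and 213 reads in sgNT and 316 and 230 in sgCbfb cells. These are 66.3 and 63.9 CPM against 80.9 and 72.1 CPM, a log2 difference of 0.23 (standard error 0.11) with no overlap between the groups, which was 0.15 without sgCbfb library 1. An exon of Smad5 shares 100 bases with Gm27301 on the same strand. Smad1 (chr8:79338395-79399518, minus strand), which shares its role, had 104 and 84 reads against 122 and 91, and its levels of 30.6 and 25.2 CPM overlapped with 31.2 and 28.5 CPM. Its log2 difference of 0.10 (standard error 0.16) turned to -0.036 when sgNT library 2 was left out. The SMAD genes are similar in their coding parts, but in the last 500 bases of their transcripts, where these libraries are read, 0 of 902 stretches of 50 bases from Smad1 and 0 of 1246 from Smad5 recurred in a transcript of another gene. The same count was 0 for each Id gene and each receptor gene, and 8 of 637 for Bmp4.

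In sgNT cells the order of levels ran from Id1 and Id3, which did not differ beyond the spread of Id3, through Smad5, Bmpr1a and Id2 to Smad1 and Acvr1, which overlapped, then Bmpr2 and, far below, Id4 and Bmp4. In sgCbfb cells Id1 stood clear of Id3, and Id2 fell behind Smad1 and Acvr1 to a place just above Bmpr2. By mean level over the 4 libraries, Id1 and Id3 stood at the 90.2 and 88.6 percentiles of the genes that passed the filter, and Id4 at 11.3.

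**Figure D2:**
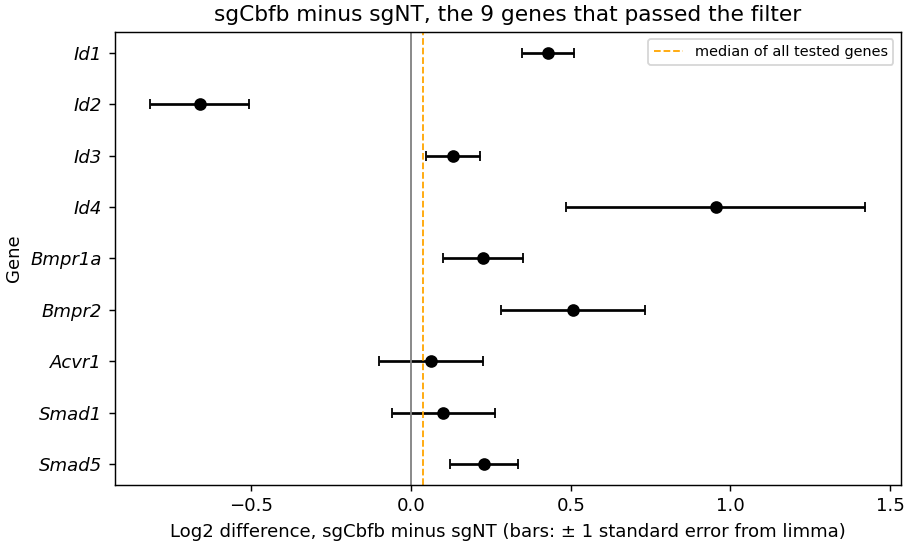
Log2 difference between sgCbfb and sgNT cells for the 9 genes that passed the filter, as points with bars of ± 1 standard error from limma; the dashed line is the median of all genes tested, 0.039. Id2 alone lies below 0, and the bars of Acvr1 and Smad1 cross 0.

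Over the 9 members in the fit, 8 log2 differences were positive and 1 was negative, with a median of 0.23 beside 0.039 over all genes tested. In 7 of the 9 both sgCbfb libraries lay above both sgNT libraries, in Id2 they lay below, and in Smad1 they overlapped. Of all genes tested, 27.4% had both sgCbfb libraries above and 16.8% below. At an adjusted p under 0.05 in limma, 1 member was counted as higher (Id1) and 1 as lower (Id2), where 2.83% of all genes tested passed (1.57% higher and 1.25% lower). These counts only describe a set that was chosen with the comparison in view. With no filter, with quantile normalization or without the mean-variance trend, the count of members was 0 higher and 0 lower. That count without either sgNT library was 1 higher and 0 lower, and without either sgCbfb library it was 0 and 0. In those last 2 fits, limma gave 0 genes of any kind at the threshold and 1104 and 1169 at an unadjusted p under 0.05.

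**Figure D3:**
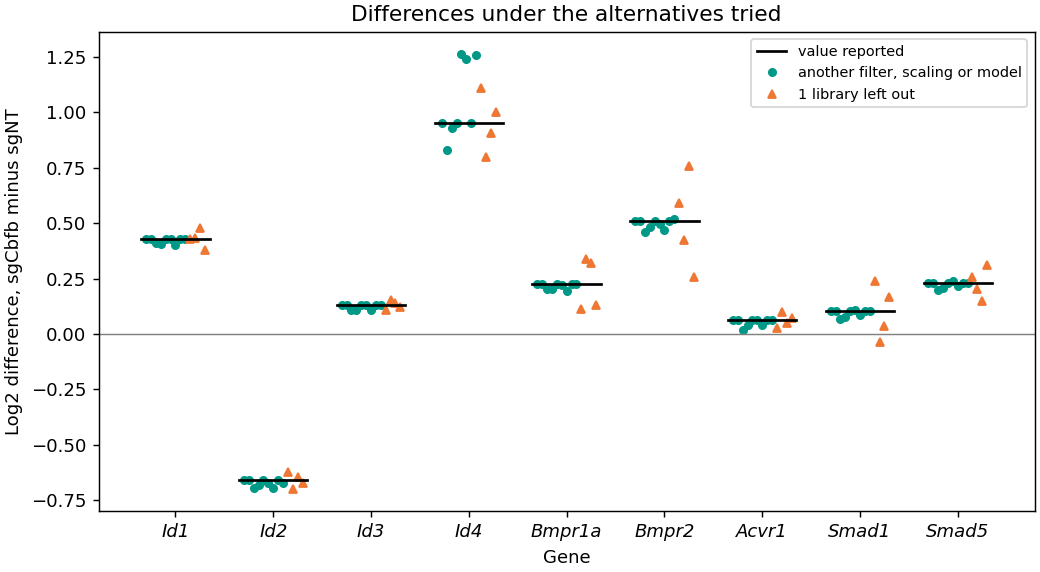
Log2 difference for each gene as reported (black line), under other filters, scalings and models (circles), and with 1 library left out (triangles). The values of Id1, Id2 and Id3 stay within narrow bands, those of Id4 and Bmpr2 spread widely, and Smad1 crosses 0 without sgNT library 2.

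Outside the members, 87 symbols of the same pathway were listed by role and tested over all genes. The lists were drawn up with earlier results of these data known, so their counts and p-values are given with that limit. The file listed 86 of them, 24 without a read in any library, and 53 passed the filter. Of these 53, 2 were higher (Fstl1 and Runx2) and 3 were lower (Bmp2, Grem1 and Smad7) in sgCbfb cells at an adjusted p under 0.05, and 48 did not pass, where 2.83% of all genes tested passed. Grem1 met the filter through the sgNT libraries alone. The median log2 difference of the 53 was 0.047.

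Among the ligands, the cells expressed Bmp2 and little else. Of 13 ligand genes besides Bmp4, 11 had no reads, and Bmp7 had between 2 and 10 reads a library. Bmp2 (chr2:133552159-133562885, plus strand), a close relative of Bmp4 that signals through the same receptors, had 73 and 66 reads in sgNT and 17 and 13 in sgCbfb cells. Its level of 21.5 and 19.8 CPM went to 4.35 and 4.08 CPM, with a wide gap between the groups. The log2 difference was -2.15 with a standard error of 0.26 (limma, adjusted p = 8.24e-06), and 20.5% of the sgNT reads were left after scaling. Id1, one of the Id genes that BMP signalling can switch on, was higher in the same libraries, and a link between Bmp2 and Id1 was not tested.

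Secreted antagonists split as well. Grem1 (chr2:113746164-113758646, minus strand), whose product Gremlin 1 binds and blocks BMP2 and BMP4, had 33 and 42 sgNT reads against 1 and 4 sgCbfb reads. The pooled reads were 75 against 5, a level of 6.32% of sgNT, as a ratio with a 95% exact binomial interval from 0.0200 to 0.154 for counting error only. The log2 difference was -3.24 on the deposited scale with a standard error of 0.42 (limma, adjusted p = 1.68e-05), a scale that understates changes of low genes. Grem1 passed the filter through the sgNT libraries alone, unlike the other 4 genes past the threshold, so that the filter itself favoured a difference and the p-value is given with that limit. Grem1 and Bmp2, an antagonist and a ligand it binds, were thus lower in the same cells. Fstl1 (chr16:37776873-37836514, plus strand), a secreted glycoprotein related to follistatin that has been reported to bind BMP4, rose from 255 and 235 reads in sgNT to 427 and 397 in sgCbfb cells. Its level went from 75.1 and 70.5 to 109.3 and 124.5 CPM (limma log2 difference 0.68, SE 0.098, adjusted p = 8.96e-05). Of the 20 genes in this list 10 were tested, of which the other 8 did not pass, and 7 of the 20, Nog among them, had no reads.

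**Figure D4:**
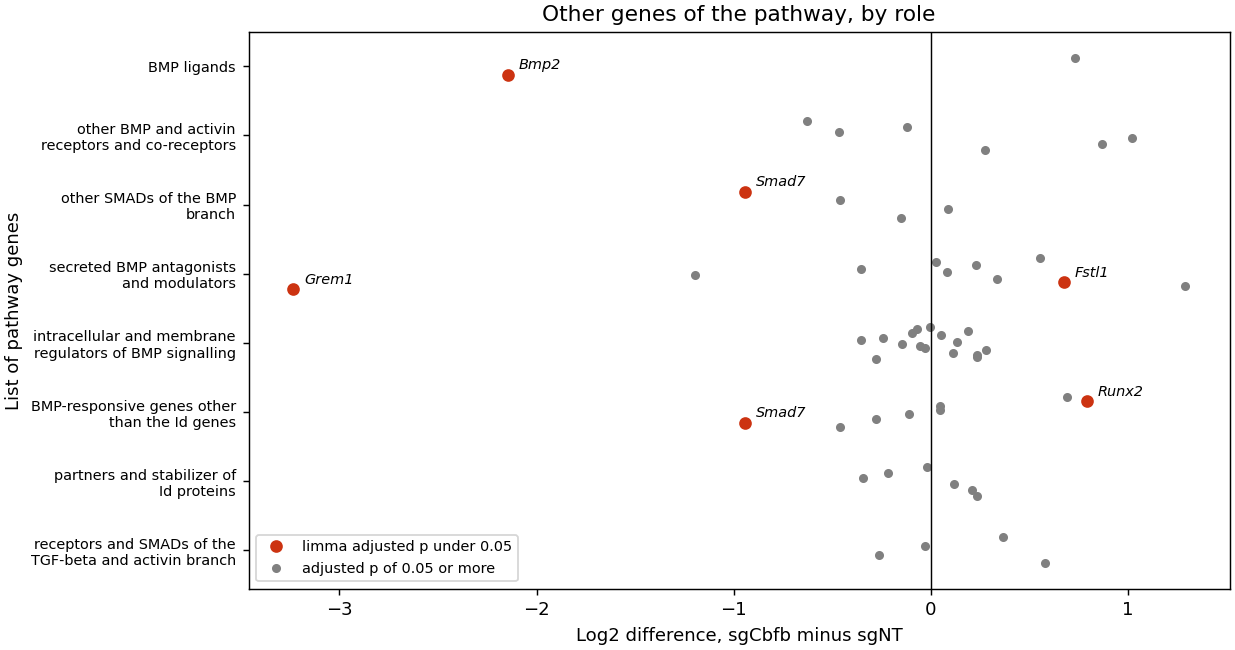
Log2 difference between sgCbfb and sgNT cells (x axis) for the other pathway genes that passed the filter, in rows by role, with genes at a limma adjusted p under 0.05 in red and the others in grey; Smad6, Smad7 and Bambi each stand in 2 rows. Bmp2, Grem1 and Smad7 lie on the lower side and Fstl1 and Runx2 on the higher side, while regulators inside the cell cluster near 0.

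Of the other SMADs in the BMP branch, Smad7 was lower. It encodes an inhibitory SMAD that answers to BMP as well as TGF-β. The libraries held 57 and 51 reads in sgNT and 26 and 31 in sgCbfb cells, that is 16.8 and 15.3 against 6.65 and 9.72 CPM (limma log2 difference -0.94, SE 0.25, adjusted p = 0.0439). Smad4, the partner shared by both branches, had levels of 71.0 and 63.6 against 70.4 and 72.4 CPM, differing by 0.087 on the log2 scale with SE 0.11 (limma, adjusted p = 0.777).

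Among 14 BMP-responsive genes other than the Id genes, 8 were tested, 1 rose and 1 fell. Smad7 was the one that fell, and Runx2 (chr17:44495987-44814797, minus strand), a transcription factor of bone formation and itself a partner of CBFβ, rose. It had 55 and 52 reads in sgNT and 108 and 90 in sgCbfb cells, and levels of 16.2 and 15.6 against 27.6 and 28.2 CPM (limma log2 difference 0.79, SE 0.18, adjusted p = 0.0123). Tbx3, named here after its values were seen because it lay just outside the threshold, had 52 and 46 against 100 and 71 reads (log2 difference 0.69, adjusted p = 0.0542 from limma). Rgma, a BMP co-receptor named for the same reason, had 19 and 18 against 42 and 41 reads (log2 difference 1.02, adjusted p = 0.0509 from limma). Both passed with a minimum of 5 CPM, with the replicate block, with a smaller added count and when voom weighted the recovered reads scaled to library totals. With median scaling of those reads Tbx3 passed and Rgma did not, and neither passed with median centring or quantile normalization of the deposited values. Neither passed without the filter on low values or without the mean-variance trend.

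**Figure D5:**
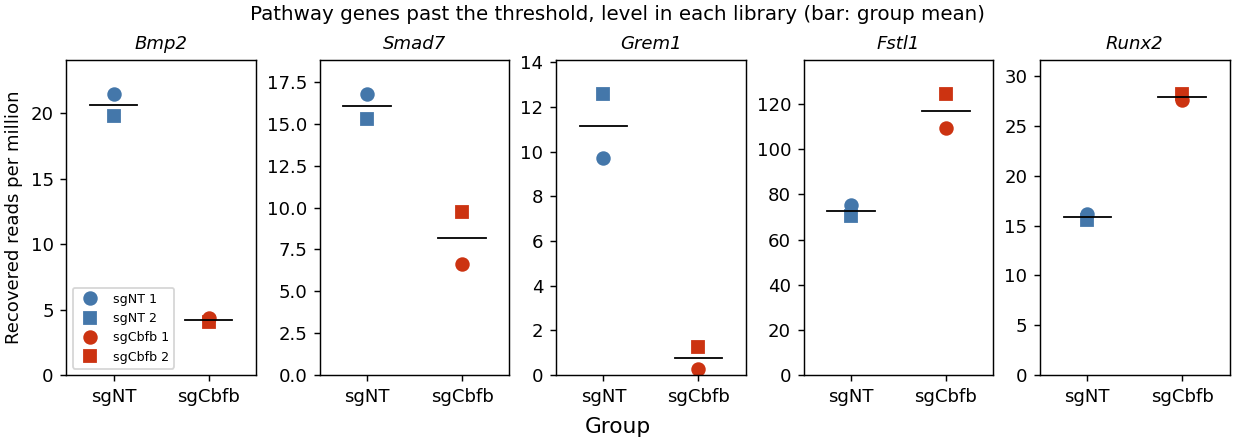
Level (CPM from recovered reads) in each library for the 5 tested pathway genes past the threshold, with sgNT in blue, sgCbfb in red and a bar at each group mean; each panel has its own axis from 0. Bmp2 and Grem1 fall to a small part of their sgNT level. The groups overlap in no panel, but these genes were picked by the same comparison.

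The remaining lists had no gene past the threshold in limma. Of all genes tested, 14.9% had an unadjusted p under 0.05. Counts in voom are with library totals. None of the 6 receptors and co-receptors tested passed (2 at an unadjusted p under 0.05, and 1, Rgma, in voom), with Tgfbr3 the most abundant by mean level over the 4 libraries, at 60 and 54 against 41 and 35 reads, though in sgCbfb cells Rgma had more reads in each library. None of 16 regulators in the cell or its membrane passed (3 unadjusted, 0 in voom), and the most abundant, Fkbp1a, which keeps type I receptors inactive, differed by 0.13 (adjusted p = 0.285 from limma). For the partners of ID proteins the count was 0 of 6 (4 unadjusted, 0 in voom). They comprise the E proteins Tcf3, Tcf4 and Tcf12, Twist1 and Twist2, and Usp1, which protects ID proteins from degradation and was the most abundant, with a log2 difference of -0.021 (adjusted p = 0.927 from limma). In the receptors and SMADs of the TGF-β and activin branch it was 0 of 4 (1 unadjusted, 0 in voom), with Smad3 the most abundant at a log2 difference of 0.37 (adjusted p = 0.164 from limma).

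The 5 calls rested on all 4 libraries to different degrees. Fits with 1 library left out kept the filter set over all 4 libraries, which Grem1 passed through the sgNT libraries alone. Without either sgNT library Bmp2, Grem1 and Fstl1 kept an adjusted p between 0.00166 and 0.00667 in limma. Runx2 went to 0.0582 without sgNT library 1 and 0.0854 without sgNT library 2, and Smad7 to 0.242 and 0.176. Without either sgCbfb library all 5 were lost, at adjusted p-values from 0.263 to 0.551 in limma, in fits where 0 of all genes passed. None of the 5 changed direction in any of these fits. With quantile normalization Bmp2 passed (adjusted p = 0.0145 from limma) and the other 4 did not (0.0517 for Grem1, 0.0646 for Fstl1, 0.121 for Runx2 and 0.202 for Smad7). All 5 calls were lost with no filter on low values (adjusted p from 0.156 for Bmp2 to 0.686 for Smad7 in limma) and without the mean-variance trend (from 0.113 for Bmp2 to 0.291 for Smad7).

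Genes with a profile most like a member's were sought by the root mean square distance between log2 values centred on each gene's mean over the 4 libraries. Id4 had the largest difference, and the 5 nearest genes were Zbtb4, Maged2, Gatsl2, Atat1 and Adra1b, at distances from 0.036 to 0.054 log2 units, though with 2 to 8 reads for Id4 itself this order carries little. For Id2, the member with the largest difference among those with at least 10 reads in every library, added after the values were seen, they were Prl2c2, Tgfbr3, Vcl, Xab2 and Clu, at 0.011 to 0.032 log2 units. Prl2c2 belongs to a family of near-identical copies between which reads could be split.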

How the data were processed

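MC38 libraries (2 sgNT, 2 sgCbfb) were made with a 3′ mRNA kit. According to the study's methods and the submitters' processing notes, the authors used cutadapt 1.9 for trimming, HISAT2 2.1.0 for alignment (GRCm38/mm10) and featureCounts for counting (2.0.1 in the notes; the study's methods give another version). The tool that made the values, the annotation, strand use and multi-mapping reads are not given in the sources used here. The authors deposited log2 CPM with an implied prior count of 2. Value columns left unused numbered 0.

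Whole reads were recovered from the steps between low values (2 values in all lay over 0.1 from a whole number) and used for depth, ratios and voom. Deposited log2 values of 12207 genes were tested in limma 3.58.1 (R 4.3.3) with a mean-variance trend, two-sided, with Benjamini-Hochberg adjustment over all of them at 0.05; the code was checked on simulated data. An exact permutation test of 2 against 2 libraries has 0.333 as its smallest p. Alternatives were no filter, a minimum of 5 CPM, quantile normalization, median centring, no trend, voom with library totals or median scaling, the replicate block, a threshold of 0.01, leaving out each library and, chosen after seeing the data, an added count of 0.5 on the recovered reads.

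The members and gene lists were chosen with earlier results of these data known. Genes named are the 10 members, every other pathway gene past the threshold, the most abundant gene of the other lists and of the SMADs, and the 5 nearest profiles. Bmp7, Nog, Rgma and Tbx3 were named after their values were seen. Positions are from GENCODE M21 (GRCm38). Figures were drawn with matplotlib 3.10.9 in Python 3.11.15.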

Additional observations from a re-analysis of the deposited data

How the results depend on the processing

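The members' median log2 difference, 0.23 as reported, stayed between 0.15 and 0.24 under every alternative, and only Smad1 changed sign, in 1 of 13. Against 192 higher and 153 lower genes in all, 2 and 3 other pathway genes, and 1 and 1 members, no filter gave 2 and 53 genes in all, 0 and 0 pathway genes and 0 and 0 members. A minimum of 5 CPM gave 300 higher genes in all and 4 higher pathway genes. Quantile normalization gave 39 and 44 in all, 0 and 1 pathway genes and 0 and 0 members. Without the trend every count was 0 (1461 genes at an unadjusted p under 0.05 in limma). Voom with library totals gave 4 higher pathway genes, adding Rgma and Tbx3. An adjusted p under 0.01 gave 103 and 97 in all, 1 higher pathway gene and 0 lower members. With 1 library left out, where a lone library is assumed to vary like the other group, the counts ranged from 0 to 115 higher and 0 to 86 lower in all, 0 to 1 higher and 0 to 2 lower for the pathway, and 0 to 1 higher and 0 to 0 lower for members. The cause of these shifts was not tested. Deviations of libraries with the same number were uncorrelated (-0.00417), and the labels do not say whether such libraries were paired. The replicate block gave 320 higher genes in all and 4 higher pathway genes. Median centring gave 176 higher and 188 lower, a higher share of 48.4% against 55.7% as reported, and voom with median scaling gave 47.3%. A planned pseudocount for linear CPM had no use, as the values came on a log2 scale. An added count of 0.5 on the recovered reads, chosen after seeing the data, gave 4 higher pathway genes (Rgma and Tbx3 besides the 2), with Id4 at 1.26 and Grem1 at -3.93 on the log2 scale. Of the pathway genes with values in the text, depth limits Id4, Bmp4, Bmp7 and Grem1, each at 10 reads or fewer in at least 1 group.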
